A study of Homo sapiens with 12 samples.

Results

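THP-1 cells that had been kept with either of a pair of H1299 lines were compared across all genes. The 6 THP-1 libraries of the 12 in the series were taken by their labels, 3 against 3, and no measured value entered that choice. THP-1, a human line from a monocytic leukaemia, becomes macrophage-like when treated with the phorbol ester PMA. H1299 comes from a human non-small-cell lung cancer. Both THP-1 groups carried the genotype label WT and had 24 h of PMA followed by 48 h with H1299. The labelled control group was kept with control H1299 and the labelled DCBLD2 group with H1299 labelled as overexpressing DCBLD2. The design text calls this step co-culture and the sample labels name supernatant, so whether the cells touched is not settled by these sources. There was no THP-1 group without H1299 and none without PMA. Nothing in the labels states that the 3 libraries of a group were grown separately. The p-values then reflect how far these libraries differ from each other, which may be technical.

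Macrophages read their surroundings through receptors for cytokines, nucleic acids, lipids and dying cells, and change which secreted proteins, surface receptors and digestive enzymes they make. Type I interferon is one such signal. It acts through JAK kinases and STAT factors, which bind interferon-stimulated response elements in promoters and switch on antiviral genes. Tumour-associated macrophages are known for making growth factors, proteases and matrix proteins, and for forms that carry lipid-handling genes such as TREM2, APOE and SPP1.

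DCBLD2, a membrane protein with neuropilin-like domains, went against the labels in H1299. It stood at 247, 148 and 196 TPM (a transcript's share of all transcripts, corrected for length) in the H1299 libraries labelled control and at 105, 98.2 and 92.5 TPM in those labelled DCBLD2. All 3 libraries labelled as overexpressing were below all 3 controls. Directions are therefore given throughout as labelled DCBLD2 against labelled control. In THP-1 cells themselves DCBLD2 was at 11.4, 12.2 and 12 TPM in labelled control and 6.53, 6.61 and 6.27 TPM in labelled DCBLD2. SPP1, which encodes osteopontin and is named in the title of the series, moved little, with 2224, 2202 and 2222 TPM against 2345, 2399 and 2399 TPM. Its log2 fold change was 0.15 ± 0.01 (SE).

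The THP-1 libraries held 18606739 to 26787853 estimated reads. Macrophage markers were present: 14 of 15 were above 1 TPM on average in both groups, and the low one was the scavenger receptor CD163, at 0.262 and 0.698 TPM. Their summed level was 9008 to 9056 TPM in labelled control and 10364 to 10566 TPM in labelled DCBLD2. CD68, one of the 15, is not particular to macrophages here, at 136 TPM in labelled control H1299 and 198 TPM in labelled DCBLD2 H1299. Of 13 genes listed for H1299-type carcinoma cells, not all of them abundant in H1299 here, 7 and 9 were above 1 TPM. Their sums were 314 to 324 and 231 to 246 TPM. CAV1 and TPM2 made up most of those sums. KRT8 was at 0.283 and 0.524 TPM, KRT18 at 0.204 and 1.01 TPM, and KRT19 at 0. KRT19 was also near the floor in H1299, at 0.177 TPM in labelled control and 0.042 TPM in labelled DCBLD2. Its 0 in THP-1 therefore cannot show whether H1299 RNA is present. In H1299, KRT8 and KRT18 reached 539 and 1379 TPM in labelled control and 460 and 938 TPM in labelled DCBLD2, so the THP-1 level of KRT18 was 0.0148% and 0.108% of that in the matching H1299 group. KRTAP4-7, a hair keratin-associated protein, had 0, 0 and 0 reads in labelled control THP-1 and 11, 16 and 13 in labelled DCBLD2. Its mean H1299 level was 0.029 TPM in labelled control and 25.1 TPM in labelled DCBLD2. Its 1.02 TPM in labelled DCBLD2 THP-1 was 4.06% of the matching H1299 level, a larger share than that of KRT18. The part of H1299 RNA in other results was not tested. Lymphocyte markers summed to 4.05 to 4.97 and 2.32 to 4.08 TPM, with CD3E, CD3G, CD2 and MS4A1 at 0. Endothelial markers, nearly all of it PECAM1, summed to 171 to 174 and 141 to 149 TPM, and fibroblast markers to 9.07 to 11.4 and 10.9 to 11.5 TPM.

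A broad but shallow shift separated the THP-1 groups. Of 13120 genes tested, 8941 were called at an adjusted p under 0.05 by edgeR's quasi-likelihood test, which is 68.1%: 4528 were higher (34.5%) and 4413 lower (33.6%) in labelled DCBLD2. Most of these differences were small, with 68.9% of the called genes under 1.5-fold and 19.8% between 1.5-fold and 2-fold. A change of at least 2-fold was found for 516 genes upwards (3.93%) and 493 downwards (3.76%), 7.69% in all. Only 66 and 60 of these reached 4-fold. Against a fold of 1.5 as the null, edgeR called 821 genes higher (6.26%) and 682 lower (5.20%). The groups did not overlap in TPM for 64.9% of genes. These shares are the background against which counts of members are read below, and fold size is weighed over p. The reason is the tight spread: variation beyond counting noise was 1.96% over all THP-1 genes against 13.3% in H1299. With the H1299 spread put in its place, 4531 genes were called, and the small changes given below for SPP1, IL1B, CXCL8, CCL20, FTH1, FTL, FN1, BUB3 and HLA-DMA were no longer among them.

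**Figure D1:**
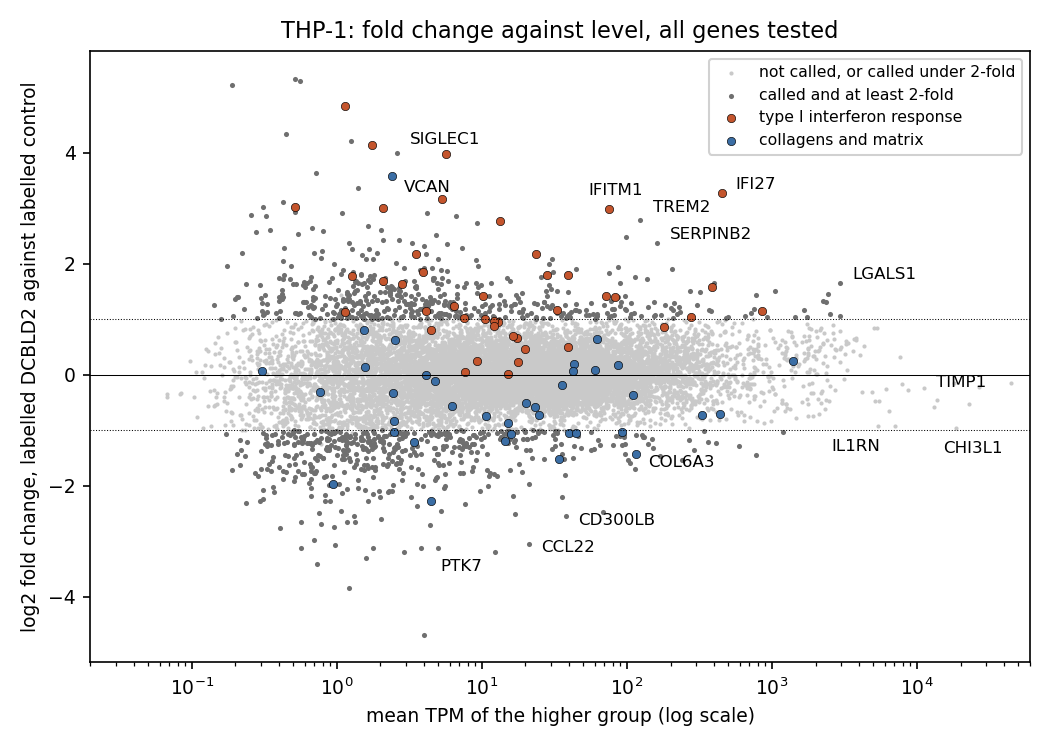
Fold change of each THP-1 gene (vertical axis, log2, labelled DCBLD2 against labelled control) against its mean TPM in the higher group (horizontal log axis). 13118 genes are drawn, the other 2 being at 0 TPM in all libraries of a group. Interferon genes (orange) lie at or above 0 and most matrix genes (blue) below it, while most large folds sit at low TPM.

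Low genes held most of the large folds. Below 1 TPM in the higher group 22.0% of 1090 genes were called at 2-fold or more, against 3.20% of 6123 genes between 10 and 100 TPM. At 1000 TPM or more, 10 genes were at least 2-fold higher and 1 was lower, of 168. The 10 most abundant genes took 18.5% of all TPM in each labelled control library and 14.5% to 14.6% in labelled DCBLD2. For the genes the results turn on, TPM in every library is therefore given, and other genes have a log2 fold change only.

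Transcript length moved with the groups. Genes were ranked by effective length, read from the ratio of estimated count to TPM. They were cut into 10 bins of like size. The shortest bin had a median log2 fold change of 0.36, the next bin 0.14 and every other bin between -0.10 and 0.02. In the shortest bin 8.77% of genes were at least 2-fold higher and 1.83% lower. The relation did not rest on ribosomal and respiratory chain genes, since the median of the shortest bin was 0.32 without them. A length-centred value is the fold change of a gene less the median of genes of like length. For that value the genes were cut into 20 bins, finer than the 10 above. It is given below for some lists and a few genes, and other folds of single genes are uncentred. Centring lowers the rises of short genes and deepens their falls. CYBA goes from 0.81 to 0.32 and PSMB9 from 0.96 to 0.47, while TIMP1 goes from -0.53 to -1.02. Any part of length, RNA quality or library preparation in a result was not tested beyond that value.

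**Figure D2:**
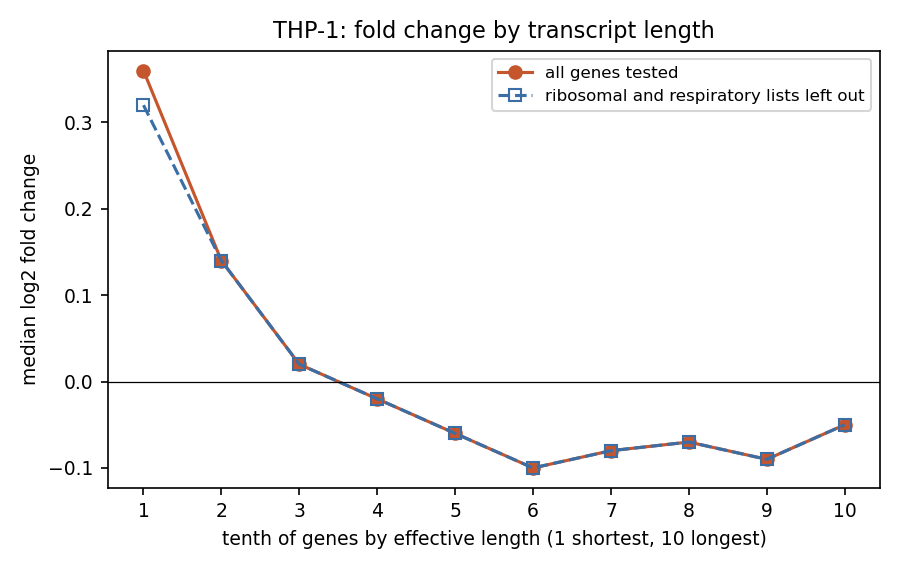
Median log2 fold change in THP-1 (vertical axis) in 10 bins of genes ranked on effective length (horizontal axis, 1 is the shortest). The line falls from 0.36 in the shortest bin to near 0 by the third, with the ribosomal and respiratory lists in or left out.

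Interferon response genes rose together. Of 42 listed and tested, 39 were higher, 0 lower and 3 not called, and 29 were at least 2-fold higher. Their median log2 fold change was 1.32, against 0.00 over all genes, and 1.22 after length centring. As a share of all TPM the list went from 0.109% in each labelled control library to 0.277%, 0.280% and 0.276%. The 3 members not called were USP18 (0.00), TDRD7 (0.05) and ISG20 (0.24), given as log2 values after the counts were seen. At 10 TPM or more IFI27 had the largest rise of the list, while IFI44L (from 0.0873 to 1.14 TPM), IFIT1 (from 0.1 to 1.75 TPM) and IFI44, given below, had larger fitted folds at lower levels. IFI27 (ENSG00000165949, chromosome 14, 94104836 to 94116698, plus strand, GRCh38), a small interferon-induced mitochondrial protein, was at 49.0, 46.9 and 49.8 TPM in labelled control and 461, 460 and 447 TPM in labelled DCBLD2. The groups lay far apart and the libraries of each group close together. On the log2 scale it rose by 3.27 ± 0.04 (SE), at an edgeR adjusted p of 1.12e-26. IFITM1, which blocks viral entry at membranes, was at 8.70, 10.7 and 11.7 TPM against 76.7, 73.8 and 75.8 TPM. IFITM3, its relative in endosomes, was at 139, 131 and 124 TPM against 392, 383 and 379 TPM. The groups lay far apart for both, although reads can be shared within this near-identical family. MX1, a GTPase that traps viral particles, was at 1.72, 2.0 and 2.12 TPM against 13.4, 14.0 and 12.5 TPM, a log2 fold change of 2.77 ± 0.10 (SE). OAS2, which makes the second messenger of RNase L, was at 5.48, 6.0 and 5.07 TPM against 23.9, 22.9 and 23.7 TPM. Low and high members alike moved: IFI44 rose by 3.97 on the log2 scale from 0.471 TPM, and IFI6 by 1.15 from 396 TPM. TRIM22 rose by 3.16 in counts, and by less in TPM, from 1.21 to 5.30.

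The factors that carry the interferon signal did not move as a group. Of 19, 9 were higher, 4 lower and 6 not called, 0 changed 2-fold, and the median was 0.05. IRF9, a DNA-binding factor of the interferon pathway, rose by 0.65 ± 0.04 (SE) from 41.3, 42.7 and 41.8 TPM to 67.7, 67.9 and 66.5 TPM. IRF7, an amplifier of interferon genes, rose by 0.46 and the feedback inhibitor SOCS3 by 0.48. IRF8, a myeloid factor, fell by 0.53, from 96.6, 93.2 and 91.7 TPM to 63.9, 68.7 and 63.2 TPM. Sensors of nucleic acids moved more, with 10 of 14 tested higher, 3 lower and 6 at least 2-fold higher (median 0.75). Among those 6, TLR7, TLR8, AIM2 and RIGI stayed low, at means of 0.257, 0.795, 2.08 and 4.5 TPM in labelled DCBLD2. The DNA sensor IFI16 rose from 11.6, 12.2 and 13.3 TPM to 27.4, 28.1 and 29.1 TPM. SAMHD1, a nucleotide hydrolase that limits retroviruses, rose by 1.19. CGAS, the cytosolic DNA sensor that makes cyclic GMP-AMP, went the other way, from 25.6, 26.5 and 26.4 TPM to 17.2, 18.7 and 18.4 TPM. IFIH1 and some other sensors are interferon-inducible and IFIH1 stands in both lists.

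Promoter sequence is shown for the 4 most abundant interferon genes that rose 2-fold and hold the core of the interferon-stimulated response element (GAAA, any 2 bases, GAAA) within 250 bases before the start site. Each stretch is from RefSeq (GRCh38.p14), 5′ to 3′ on the strand of the gene, ends before the start site, and has matches on either strand in capitals. They are IFI6 (chr1:27672246-27672378, minus strand, 3 matches), IFITM3 (chr11:320861-320942, minus, 2), IFI27 (chr14:94110598-94110680, plus, 2) and BST2 (chr19:17405715-17405790, minus, 2 that overlap).
IFI6: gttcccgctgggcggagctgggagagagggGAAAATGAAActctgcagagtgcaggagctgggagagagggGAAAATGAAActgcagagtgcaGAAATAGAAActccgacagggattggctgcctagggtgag
IFITM3: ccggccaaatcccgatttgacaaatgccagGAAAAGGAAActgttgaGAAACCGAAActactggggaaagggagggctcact
IFI27: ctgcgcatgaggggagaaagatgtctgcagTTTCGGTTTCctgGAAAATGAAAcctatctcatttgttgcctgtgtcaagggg
BST2: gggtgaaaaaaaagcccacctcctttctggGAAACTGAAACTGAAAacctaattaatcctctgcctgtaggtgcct
BST2, a tether that holds virus particles at the cell surface, rose by 1.03 on the log2 scale, from 139 to 277 TPM. For the shares given here and below, a promoter was a window of 300 bases, 250 before the start site and 50 after it. The element was found in 25 of 35 interferon-list promoters (71.4%), in 30 of 424 promoters of genes at least 2-fold higher (7.08%) and in 297 of 10501 promoters of tested genes (2.83%). Among genes at least 2-fold lower it was in 11 of 343 (3.21%), and in all 27305 promoters of the table in 3.65%. Outside the interferon list, 13 of 400 genes at least 2-fold higher held it (3.25%, 95% Wilson interval 1.91 to 5.48), close to the share in all tested genes. A match is a description of letters in this window and not a bound site.

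Class I antigen presentation rose modestly. Of 20 tested, 14 were higher, 4 lower and 2 not called, 0 changed 2-fold, and the median of 0.30 was 0.11 after length centring. The immunoproteasome subunit PSMB9 rose from 54.1, 51.0 and 50.2 TPM to 102, 102 and 103 TPM. HLA-B rose by 0.49, while the chaperone CALR fell by 0.52. For class II only 8 of 13 listed genes passed the filter on low counts. HLA-DRB1 rose from 31.1, 30.1 and 29.5 TPM to 69.7, 73.1 and 66.0 TPM and HLA-DRB5 by 1.04, although these near-identical genes can share reads and HLA-DRA, their usual partner chain, did not pass the filter. HLA-DMA, which loads peptide onto class II, fell by 0.39, and was not called without labelled control replicate 2 (-0.31, edgeR adjusted p = 0.0582).

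Secreted signals split. Of 27 cytokines and antagonists, 7 were higher, 14 lower and 6 not called (median -0.14), and of 18 chemokines 8 were higher and 8 lower (median -0.11). Length centring moved these medians to -0.32 and -0.29. As a share of all TPM the cytokine list went from 3.64%, 3.68% and 3.68% to 2.79%, 2.84% and 2.91%. IL1RN, the receptor antagonist of interleukin 1, was at 5285, 5437 and 5347 TPM in labelled control and 2618, 2706 and 2796 TPM in labelled DCBLD2, a log2 fold change of -0.93 ± 0.01 (SE). IL1B, an agonist, fell far less, by 0.22, from 26484, 26683 and 26800 TPM to 21921, 22264 and 22826 TPM. IL1A, also an agonist, rose by 0.42, from a mean of 52.5 TPM to 68.9 TPM. TNF went up, from 111, 117 and 114 TPM to 201, 198 and 206 TPM. The groups did not overlap for any of these, and the antagonist moved further than either agonist. The T-cell costimulator TNFSF14 (138, 146 and 138 against 60.9, 55.8 and 61.2 TPM) and the stress cytokine GDF15 (1215, 1198 and 1174 against 557, 575 and 570 TPM) both fell more than 2-fold. Among chemokines CCL22, which draws regulatory T cells through CCR4, showed the largest fall. It was at 20.7, 22.4 and 20.4 TPM against 2.18, 2.53 and 2.81 TPM, a log2 fold change of -3.05 ± 0.08 (SE). CCL2, the monocyte attractant, rose by 1.58 but stayed low, at 2.21, 1.86 and 3.64 TPM against 7.78, 7.82 and 6.95 TPM. The abundant CXCL8 and CCL20 fell by 0.24 and 0.31. Their receptors moved both ways (9 of 30 higher, 13 lower), and CCR7, the lymph-node homing receptor, fell from 9.02, 10.7 and 9.47 TPM to 2.34, 2.39 and 2.34 TPM.

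Phagocytic receptors and identity genes of macrophages were more often higher than lower, with large falls among them. Of 24 Fc, scavenger and phagocytic receptors 17 were higher and 6 lower (median 0.48). Their share of all TPM went from 0.198%, 0.193% and 0.199% to 0.282%, 0.279% and 0.279%. That gain lay in the most abundant member, FCER1G, at 1261, 1217 and 1268 against 2199, 2148 and 2150 TPM. Its log2 fold change was 0.83, or 0.34 length-centred. The whole list summed to 1977, 1934 and 1986 against 2819, 2794 and 2786 TPM, a smaller gain than that of FCER1G. Of 37 identity genes listed, 28 passed the filter on low counts, and MRC1, C1QA, C1QB and C1QC were among those that did not. Of the 28, 17 were higher and 7 lower (median 0.35, or 0.17 length-centred). CD14, the co-receptor for bacterial lipopolysaccharide, was at 118, 114 and 115 TPM against 323, 317 and 316 TPM, a log2 fold change of 1.49 ± 0.03 (SE). PTPRC, the phosphatase CD45, rose by 1.16 and the scavenger receptor MSR1 by 1.02, while the integrin chains ITGAM and ITGAX fell by 0.87 and 0.80. OLR1, a receptor for oxidised lipoprotein, rose from 4.78, 4.97 and 5.59 TPM to 14.2, 13.2 and 12.5 TPM. AXL, a receptor for dying cells, fell from 26.4, 28.3 and 25.4 TPM to 8.93, 8.94 and 8.73 TPM. SIGLEC1 and VCAN had larger folds, 4.0 and 3.58 on the log2 scale, but from 0.165 and 0.231 TPM to only 2.61 and 2.39 TPM. They were named after their values were seen. Of 30 inhibitory and activating myeloid receptors 12 were higher and 11 lower. Here CD300LB, an activating receptor, fell from 37.6, 37.1 and 39.6 TPM to 6.02, 6.30 and 6.57 TPM. CD300A, an inhibitory relative, fell from 17.0, 17.1 and 15.1 TPM to 4.20, 3.08 and 3.24 TPM.

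**Figure D3:**
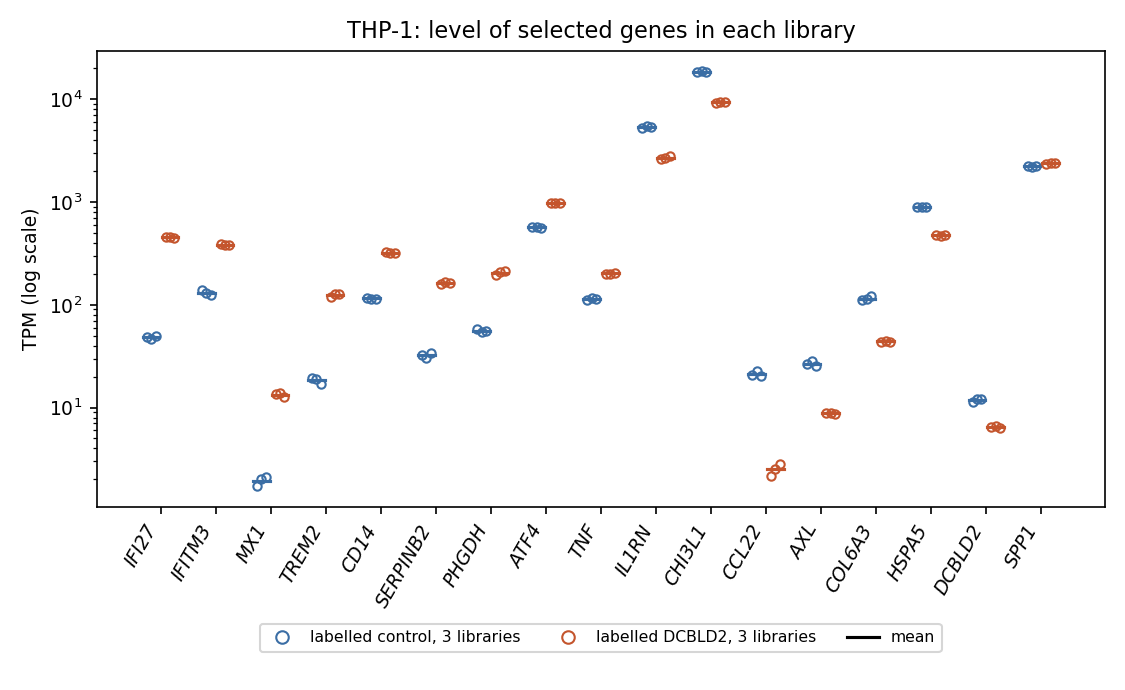
TPM of 17 genes (log axis) in each of the 6 THP-1 libraries, with open circles for libraries and bars for means. The 2 groups do not overlap for any gene drawn, and SPP1 shows the smallest gap. The genes were picked from those named, partly by non-overlap, and 64.9% of all genes tested do not overlap.

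Genes of lipid-associated macrophages moved in opposite directions. Of 24 tested, 14 were higher and 9 lower (median 0.12, or -0.07 length-centred). TREM2 (chromosome 6, 41158506 to 41163186, minus strand), a lipid receptor, was at 19.2, 18.9 and 17.1 TPM in labelled control and 118, 127 and 126 TPM in labelled DCBLD2. Its log2 fold change was 2.78 ± 0.06 (SE). The fatty acid carrier FABP4 rose by 1.25 and the lipoprotein components APOC2 and APOE by 1.09 and 0.61. CD9, a tetraspanin often listed with these genes, fell from 21.2, 21.2 and 21.2 TPM to 4.87, 5.76 and 4.52 TPM, and the phosphatase ACP5 from 8.02, 6.80 and 8.13 TPM to 1.32, 1.24 and 1.73 TPM. Of 30 lipid efflux, droplet and nuclear receptor genes 10 were higher and 13 lower, near the background, with a median of -0.05. Of these 5 were at least 2-fold lower and 0 higher, although the list's share of all TPM went from 0.527%, 0.537% and 0.528% to between 0.591% and 0.602%. NR1H3, the oxysterol receptor LXR-alpha, fell from 262, 274 and 268 TPM to 114, 118 and 122 TPM. The lipid droplet coat PLIN2 fell by 1.01 and the lysosomal cholesterol transporter NPC1 by 1.09.

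Lysosomal genes fell more often than they rose, with 37 of 60 lower, 16 higher and a median of -0.18. CTSB, a cysteine protease, went from 1779, 1788 and 1781 TPM to 1024, 1053 and 1054 TPM, a log2 fold change of -0.75 ± 0.01 (SE). CTSW fell by 1.43 and the lipase LIPA by 0.79. In the granule and oxidase list the most abundant gene decided the pool. CHI3L1, a secreted chitinase-like protein (chromosome 1, 203178931 to 203186749, minus strand), was at 18380, 18590 and 18523 TPM and then at 9181, 9374 and 9452 TPM, the largest loss of TPM of any gene, although 11 of 22 tested genes of that list were higher and 8 lower. The oxidase subunit CYBA rose by 0.81.

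Proteases, inhibitors and matrix genes shifted as well. Of 36 proteases and inhibitors 15 were lower and 13 higher. Their median of -0.18 went to 0.04 without labelled DCBLD2 replicate 1. Their share of all TPM went from 3.60%, 3.61% and 3.60% to 2.58%, 2.63% and 2.64%. TIMP1, an inhibitor of metalloproteinases, went from 22964, 22985 and 22822 TPM to 15298, 15565 and 15553 TPM. TIMP3 fell by 1.21, MMP3 by 1.23 and MMP19 by 1.33. SERPINB2, the macrophage inhibitor of urokinase, rose from 32.4, 30.1 and 34.2 TPM to 158, 166 and 163 TPM, a log2 fold change of 2.37 ± 0.04 (SE). Urokinase itself, PLAU, rose by 0.67. Of 37 collagens and matrix genes, 23 were lower, 11 of them at least 2-fold, and 9 higher. The median was -0.56 against 0.00 over all genes. COL6A3, a chain of the microfibrillar collagen VI, fell from 110, 113 and 121 TPM to 43.8, 44.3 and 43.7 TPM. COL4A2, a basement membrane collagen, fell from 33.2, 35.0 and 33.2 TPM to 11.2, 12 and 11.2 TPM, and the proteoglycan HSPG2 by 1.05. FN1, the most abundant of the list, was 0.25 higher on the log2 scale. Of 39 angiogenic factors and receptors 15 were higher and 15 lower (median -0.01). TYMP, thymidine phosphorylase, rose by 1.23, while the growth factor PDGFB fell by 1.31 and the receptor TIE1 by 1.17.

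**Figure D4:**
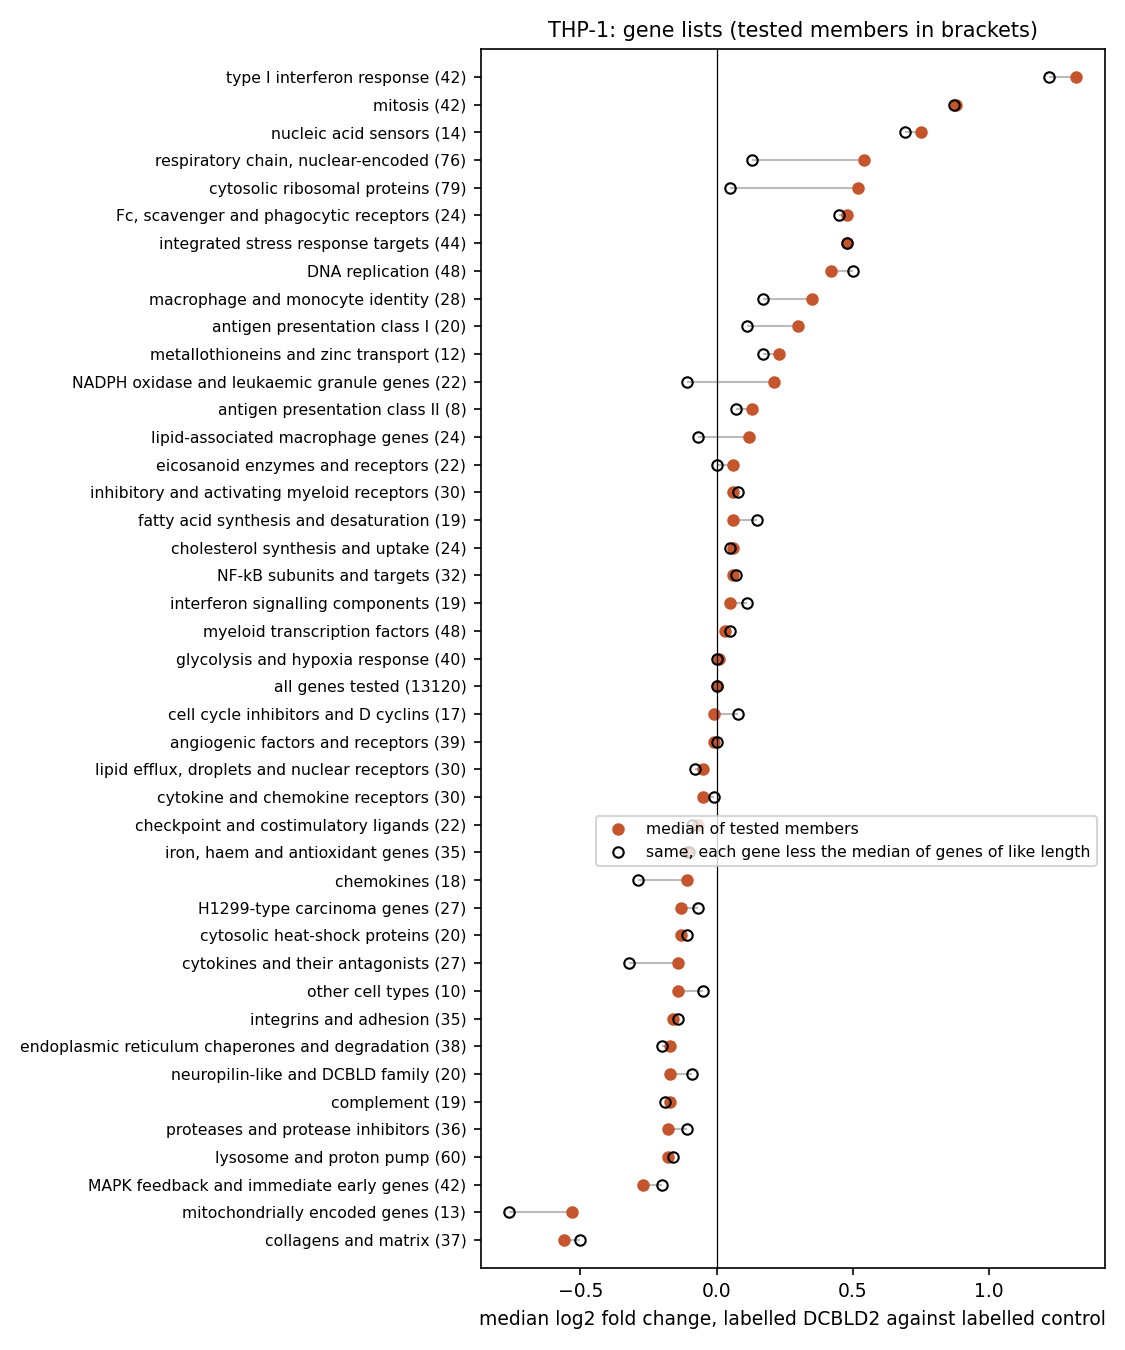
Median log2 fold change of the tested members of each gene list in THP-1 (horizontal axis, filled circles), with the number tested in brackets, and the same after length centring (open circles). Before centring, interferon genes stand highest at 1.32 and matrix genes lowest at -0.56. After centring the mitochondrially encoded list is lowest at -0.76. Ribosomal and respiratory lists move from 0.52 and 0.54 to 0.05 and 0.13.

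Targets of the integrated stress response rose more often than they fell. This pathway slows protein synthesis and induces ATF4 when amino acids run short or proteins misfold. Of 44 targets 36 were higher, 4 lower and 11 at least 2-fold higher (median 0.48, the same length-centred). PHGDH, the first enzyme of serine synthesis, was at 58.6, 53.8 and 55.9 TPM against 196, 207 and 213 TPM, a log2 fold change of 1.90 ± 0.03 (SE). CHAC1, a glutathione-degrading target of ATF4, rose from 12.6, 12.6 and 11.6 TPM to 43.1, 45.8 and 45.5 TPM, and asparagine synthetase, ASNS, by 1.33. ATF4 itself rose from 570, 573 and 560 TPM to 968, 970 and 977 TPM. The 4 that fell were GDF15, given above, ATF3 (646, 624 and 651 against 333, 333 and 326 TPM), DDIT3 and ALDH18A1. Of 38 listed genes for chaperones and degradation of the endoplasmic reticulum 25 were lower and 6 higher (median -0.17). HSPA5, the main chaperone there, fell from 888, 887 and 894 TPM to 476, 466 and 478 TPM and PDIA4 by 0.88. The CHAC1 promoter (chr15:40953232-40953299, plus strand) holds the composite element TGATGCAA of C/EBP and ATF factors in reverse orientation, shown because ATF4 rose with it.
CHAC1: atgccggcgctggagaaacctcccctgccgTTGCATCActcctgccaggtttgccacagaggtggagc
That element was in 2 of 424 promoters of genes at least 2-fold higher (0.472%), 5 of 343 of those lower (1.46%) and 52 of 10501 tested (0.495%).

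MAPK feedback and immediate early genes leaned down. Of 42, 30 were lower and 5 higher, 2 at least 2-fold lower, with a median of -0.27. DUSP6, a phosphatase that ERK signalling induces against itself, fell from 1154, 1181 and 1196 TPM to 800, 827 and 823 TPM. EGR2 fell from 480, 488 and 486 TPM to 259, 262 and 289 TPM, and the receptor kinase EPHA2 from 8.23, 7.10 and 6.91 TPM to 2.18, 2.0 and 2.2 TPM. The AP-1 element TGACTCA was in 22 of 343 promoters of genes at least 2-fold lower (6.41%, 95% Wilson interval 4.27 to 9.52), in 15 of 424 of those higher (3.54%) and in 324 of 10501 tested (3.09%). TM4SF19, a tetraspanin-like membrane protein, is the most abundant of those 22. It went from 784, 780 and 776 TPM to 270, 289 and 289 TPM, and its match (chr3:196338566-196338632, minus strand) is shown.
TM4SF19: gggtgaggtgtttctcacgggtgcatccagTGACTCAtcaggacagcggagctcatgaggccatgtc
The NF-kB list did not lean, with 16 of 32 higher and 13 lower (median 0.06), and the consensus NF-kB element was in 21 of 10501 promoters (0.200%), 1 of 424 higher and 0 of 343 lower, which allows a share of up to 1.11% (95% Wilson interval).

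Cell cycle genes rose from a low level. Of 42 mitotic genes 38 were higher, 3 lower and 19 at least 2-fold higher (median 0.88), and of 48 replication genes 38 were higher, 3 lower and 13 at least 2-fold higher (median 0.42). CDK1, the mitotic kinase, was at 3.56, 3.40 and 2.91 TPM against 10.6, 10.3 and 8.70 TPM. TK1, thymidine kinase, was at 8.48, 7.35 and 7.96 TPM against 25.1, 22.5 and 29.3 TPM. BUB3, a checkpoint protein and the most abundant member of the mitotic list, fell by 0.28, from 104, 100 and 102 TPM to 86.3, 72.4 and 81.5 TPM. In bulk RNA, more cells in cycle and more message per cell cannot be told apart. The E2F element TTTGGCGC was in 13 of 424 promoters of genes at least 2-fold higher (3.07%, 95% Wilson interval 1.80 to 5.17), 2 of 343 lower (0.583%) and 115 of 10501 tested (1.10%). Among those higher, PDPN (21.9 against 75.8 TPM) and EPB41L3 (22.1 against 40.2 TPM) were the most abundant carriers. E2F1, an S-phase factor that also bears the element (chr20:33686386-33686435, minus strand), was less abundant, at 7.53 against 16 TPM. It rose by 1.14.
E2F1: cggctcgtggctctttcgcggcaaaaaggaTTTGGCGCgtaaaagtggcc

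Ribosomal protein and mitochondrial genes changed the make-up of the pool. Of 79 cytosolic ribosomal proteins 69 were higher and 7 lower (median 0.52). They took 10.4%, 10.3% and 10.3% of all TPM in labelled control and 14.6%, 14.2% and 14.0% in labelled DCBLD2. RPS18 gained the most TPM of any gene, from 3045, 3001 and 3081 to 5618, 5277 and 5095 TPM, while RPL4 fell from 2355, 2374 and 2330 TPM to 1619, 1668 and 1671 TPM. Of the 79, 76 lay in the shortest bin of genes, and the median was 0.05 after length centring. Nuclear-encoded respiratory chain genes did alike, 66 of 76 higher and 5 lower, with medians of 0.54 and 0.13. NDUFB2, a small subunit of complex I, rose from 102, 97.6 and 107 TPM to 244, 219 and 226 TPM. Mitochondrially encoded genes went the other way although 10 of 13 are in the shortest bin: 12 were lower and 1 higher (median -0.53, or -0.76 length-centred). MT-CO1, a core subunit of complex IV, fell from 13244, 13032 and 12983 TPM to 8260, 8370 and 8770 TPM. MT-ND2, of complex I, fell from 7001, 6984 and 7144 TPM to 3570, 3578 and 3714 TPM. Abundant genes of the shortest bin outside these lists went both ways. LGALS1, the secreted lectin galectin-1, was at 954, 949 and 979 TPM against 3027, 2893 and 2871 TPM. Its log2 fold change was 1.65 and its length-centred value 1.16. S100A6 rose by 1.44 and MYL6 by 1.32, while TIMP1, CCL20 and the ferritin chains FTH1 and FTL, of the same bin, fell.

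**Figure D5:**
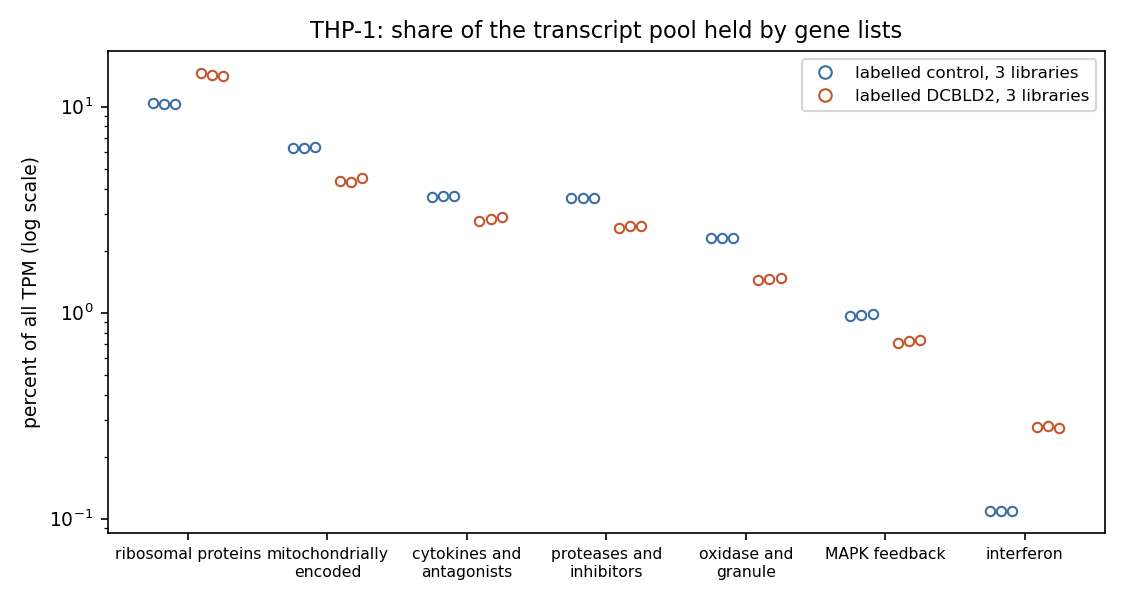
Percent of all TPM (log axis) taken by 7 gene lists in each THP-1 library. Ribosomal proteins go from 10.3% to 10.4% up to 14.0% to 14.6% and interferon genes from 0.109% up to 0.276% to 0.280%, while the other 5 lists take a smaller share in labelled DCBLD2. No list drawn overlaps between the groups. These were picked out of 42 lists. Among the others, the inhibitory and activating myeloid receptors overlap, at 0.0710% to 0.0718% against 0.0705% to 0.0733%.

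Regulators and genes outside the lists completed the largest folds. Of 48 myeloid transcription factors 18 were higher and 19 lower. BHLHE40, a stress and circadian repressor, fell from 238, 237 and 244 TPM to 79.1, 79.4 and 82.6 TPM. ID3, an inhibitor of helix-loop-helix factors, rose from 9.59, 10.3 and 10.1 TPM to 28.1, 30.1 and 24.8 TPM. The Ets factor SPIB fell by 2.46 in counts, and by less in TPM, from 4.08, 7.26 and 4.43 to 1.53, 2.08 and 0.974 TPM. PTK7, a pseudokinase of planar polarity, had the largest fall of any gene at 10 TPM or more, from 11.8, 12.9 and 12.3 TPM to 1.48, 1.44 and 2.57 TPM. CLU, a secreted chaperone of the complement list, fell from 67.0, 77.6 and 59.2 TPM to 14.4, 10.9 and 15.7 TPM. In the same list CFD, the factor D protease, rose from 34.6, 36.9 and 32.4 TPM to 111, 116 and 115 TPM. Of 22 eicosanoid genes 9 were higher and 6 lower: the leukotriene receptor CYSLTR1 rose from 1.43, 1.74 and 1.10 TPM to 10.6, 9.30 and 7.82 TPM, and the synthase PTGES fell by 1.01. The other large rises were LST1 (2.49), IGFBP7 (2.08), CADM1 (2.0) and CSTA (1.94), as log2 fold changes. The other large falls were DUSP13 (-2.50), PPP1R27 (-2.2), MB (-2.0), CAMKV (-1.83), SLC6A12 (-1.82) and PTPRF (-1.81).

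Several other lists had medians near 0. Cholesterol synthesis (9 of 24 higher, 5 lower, median 0.06) and fatty acid synthesis (8 of 19 higher, 7 lower, median 0.06) held 0 genes at 2-fold, as did glycolysis and hypoxia genes (15 of 40 higher, 17 lower, median 0.01). Checkpoint and costimulatory ligands split 8 and 8 of 22: LGALS9, the galectin-9 ligand of TIM-3, rose by 0.84 and ICOSLG, which engages ICOS on T cells, fell by 0.84. Iron, haem and antioxidant genes split 14 and 17 of 35, and the ferritin chains FTH1 and FTL each fell by 0.15. Cytosolic heat-shock proteins split 6 and 8 of 20. The neuropilin-like and DCBLD family was more often lower, 11 of 20 against 4 higher (median -0.17), with NRP1, the VEGF co-receptor, up by 0.61 and its relative NRP2 down by 1.05.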

How the data were processed

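Libraries of enriched mRNA were made with an NEBNext Ultra kit after Trizol extraction, per the labels' protocols. The submitters' processing notes name RSEM, HISAT2, Bowtie2 2.2.8, fastp 0.18.0 and StringTie 1.3.1, with build hg38. The sources used here give neither the strand nor the annotation release. The authors deposited expected counts and TPM for 20307 genes, of which 605 have no symbol. Expected counts were rounded and tested in R 4.3.3 with edgeR 4.0.16 (TMM, filterByExpr with a minimum count of 10, quasi-likelihood test, Benjamini-Hochberg over 13120 genes, threshold 0.05) on the 6 THP-1 libraries. Fold changes come from counts and levels are deposited TPM. limma 3.58.1 on log2(TPM + 1) and DESeq2 1.42.0 were alternatives. Tables were made with pandas 2.3.3 in Python 3.11.15. Counts were simulated over 12983 genes with the spread of these libraries, with 200 genes changed and no shift with length. On them the test found 81% of 100 genes set to 1.5-fold and 97% of 100 set to 2-fold. False calls made up 3.78%. These rates do not carry over to the real comparison, where 68.1% of genes were called and the shift moved with length. Gene coordinates are from GENCODE 29, which held 99.4% of tested genes, and promoters from RefSeq, found for 10501.

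The members and the 42 gene lists (1467 entries, 1433 matched by symbol) were chosen with earlier results of these data known. The naming rule took SPP1 and DCBLD2, the 12 genes with the largest rise and the 12 with the largest fall of those called at least 2-fold at 10 TPM or more, the 10 largest increases and decreases in TPM, and for each list up to 5 members with the largest changes at 5 TPM or more and the 2 most abundant. The largest rises, falls and TPM changes were taken only among genes whose groups did not overlap. Not all are printed. Genes outside it were named after their values were seen: BST2, E2F1, RPL4, SIGLEC1, VCAN, DDIT3, ALDH18A1, IFI44L, IFIT1, USP18, TDRD7, ISG20, HLA-DRA, KRTAP4-7 and the markers CD163, KRT8, KRT18, KRT19, CD3E, CD3G, CD2 and MS4A1. MRC1, C1QA, C1QB, C1QC, PDPN, EPB41L3, IL1A, TLR7, TLR8, AIM2, RIGI and the marker CD68 were likewise named after their values were seen. Intervals cover counting error only. No 2 libraries were identical.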

Additional observations from a re-analysis of the deposited data

How the results depend on the processing

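Of 13120 genes tested 8941 were called. A null of 1.5-fold gave 1503 and the H1299 spread 4531. The 1009 genes called at 2-fold or more became 364 when tested against 2-fold and 360 with limma on log2(TPM + 1), whose added 1 shrinks folds of low genes. Leaving out 1 library gave 8467 to 8719 calls, and 1044 to 1089 at 2-fold or more. DESeq2 gave 8002 and 965, library size scaling 8980 and 1014, no filter on low counts 9157 and 1229, and all 12 libraries in 1 fit 6164 and 1040. Length centring, chosen after seeing the data, gave 938 at 2-fold or more. With the replicate number as a block 8990 genes were called, and 1007 at 2-fold or more. Same-numbered libraries correlated at 0.0297, 0.0505 and 0.0568, and not every library correlated best with its own number, so the numbers were not taken as pairs. With genes of at least 5 TPM only, the share with the NF-kB element among higher genes went from 0.236% to 0 and the TGATGCAA share among lower genes from 1.46% to 0. USP18, not called, had log2 fold changes of -0.05 to 0.10 with 1 library left out and of -0.02 with limma and with length centring. The median of the interferon list ranged from 0.95 to 1.38 over the alternatives. Below 1 TPM 33.7% of genes were called against 98.2% at 1000 TPM or more, so depth limits the low genes.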
